A study of Homo sapiens with 5 samples.

Results

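The comparison described here sets MHCC97H cells carrying either ACOT12 transgene against MHCC97H cells carrying an empty vector. MHCC97H is an established line of human hepatocellular carcinoma with high metastatic capacity. Cells had been made to carry stably an empty vector, ACOT12 or a mutant of ACOT12 (ACOT12m), each as an overexpression construct, and every group had gone through 1 week of selection with puromycin. One array was read for each of 2 empty vector samples, 2 ACOT12 samples and 1 ACOT12 mutant sample, so that 3 transgene arrays stood against 2 empty vector arrays and together made up all 5 arrays of the series. Which residue the mutant changes, which promoter drove the constructs and how many clones each sample held is not given in these sources. Since no label says whether replicate arrays stem from separate cultures, the p-values may reflect technical spread alone. The mutant array had no replicate.

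Members were chosen by brightness. A probe was kept when it carried 1 gene symbol and its deposited intensity reached at least 400 on 3 or more of the 5 arrays, which held for 16022 of 28264 probes and for 12627 genes. This choice treats the groups unequally. A probe that was bright on the 3 transgene arrays alone passed, as 28 probes did, whereas a probe that was bright on both empty vector arrays alone could not pass, as happened to 12 probes. The ACOT12 probe was among the 28. At the margin, the third highest intensity was 400.1 for MLLT10 and 400.9 for PAK1IP1, just inside, and 399.8 for both MAGOH-DT and CDKL1, just outside. Kept intensities were expressed as quantile normalized log2 values, and every level or difference below is on that scale unless an intensity is named.

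ACOT12 is a cytosolic thioesterase that splits acetyl-CoA into acetate and free coenzyme A and is made mainly in the liver. Acetyl-CoA in the cytosol feeds the synthesis of fatty acids and sterols and is the donor for acetylation of histones and other proteins. A change in its supply could therefore reach both metabolism and the transcription of other genes, and the study asked which genes lie downstream of ACOT12. A mutant set beside the normal protein serves in such designs to separate what either protein does from what only the normal one does.

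Markers of the labelled cell type were present on all arrays. AFP, the fetal albumin homologue made by many liver tumours, lay between 11.68 and 11.97. FOXA2, a transcription factor of endoderm, lay between 15.09 and 15.41, and KRT18, a keratin of hepatocytes, between 16.83 and 17.20. Of markers of other cell types, PTPRC of leukocytes and COL3A1 of fibroblasts stayed under an intensity of 400 on all 5 arrays. Probes for other such markers were at or above 400 on all 5 arrays: PECAM1 of endothelium read between 990 and 1842, COL1A1 of fibroblasts between 891 and 3905, HBB of red cells between 823 and 1686, and TUBB3, a neuronal tubulin, between 9905 and 20526. ALAS2 of red cells reached 400 on 3 arrays and CDH5 of endothelium on 2. Median intensities per array were between 616 and 825. The mutant array was the dimmest, and negative intensities occurred only on 3 arrays, 310 and 911 of them on the empty vector arrays and 1 on an ACOT12 array. Over kept probes the empty vector arrays correlated at 0.992 and the ACOT12 arrays at 0.984, an empty vector with an ACOT12 array at 0.987 to 0.992, and the mutant array correlated with the others at 0.967 to 0.982, the lowest values of all pairs.

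ACOT12 itself, the check of the labels, was read at intensities of 59.2 and 18 on the empty vector arrays, 4733 and 4859 on the ACOT12 arrays and 4030 on the mutant array. The groups lay far apart, and the 3 transgene arrays were close to one another. On the log2 scale the level was 5.99 and 5.22 with empty vector, 12.20 and 12.22 with ACOT12 and 12.05 with the mutant, a difference of 6.55 ± 0.24 (SE, 3 arrays against 2). Both empty vector readings were near the floor of the array, so the size of this difference depends on how low signals are treated. The limma adjusted p was 0.00219. This probe was kept through the transgene arrays alone, so its separation in deposited intensity followed from the filter. With 3 arrays on one side and 2 on the other, the smallest two-sided p of an exact permutation test is 0.2, so none was run. ACOT12 and mutant differed by 0.16 ± 0.31 for this probe, which is within error, so the 2 transgenes were read at like levels.

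ACOT12 was the 1 probe of 16022 called higher, 0.00624% of those tested, and 0 probes were called lower, which is 0%. At an unadjusted p under 0.05, 115 probes were higher (0.718%) and 154 were lower (0.961%). Every gene besides ACOT12 described in the transgene comparison therefore missed the threshold, with a limma adjusted p of 0.9999, and its values are given as measured. All 3 transgene arrays lay above both empty vector arrays for 892 probes (5.57%) and below them for 1574 (9.82%). The median absolute difference between transgene and empty vector means was 0.11 per probe, below the 0.13 between the 2 empty vector arrays and the 0.20 between the 2 ACOT12 arrays. The groups stood at least 0.5 log2 units apart, from the nearest transgene array to the nearest empty vector array, for 8 probes that were higher (0.0499%) and 12 that were lower (0.0749%).

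**Figure D1:**
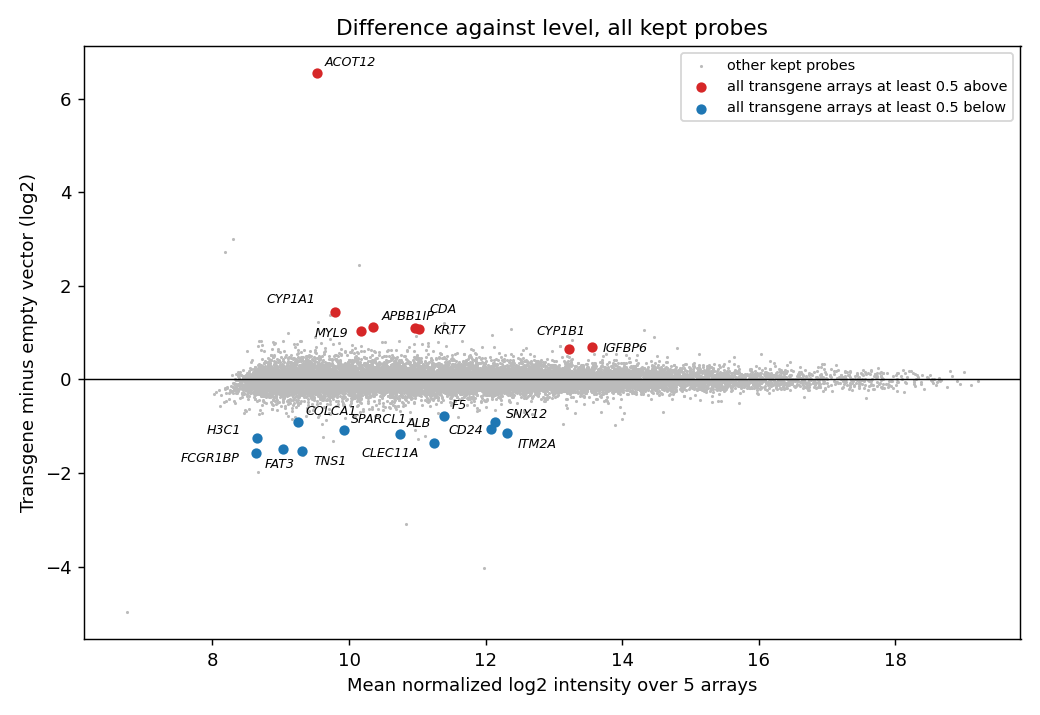
Difference between the mean of the 3 transgene arrays and the mean of the 2 empty vector arrays (log2, vertical) against the mean level over 5 arrays (log2, horizontal), 1 point per kept probe. ACOT12 stands at 6.55. The 8 probes with all transgene arrays at least 0.5 above both empty vector arrays are red and the 12 with all at least 0.5 below are blue. Grey points beyond 2 are probes that read near the floor on 1 or 2 arrays.

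Among the higher genes named for groups that did not overlap, the largest difference after ACOT12 belonged to CYP1A1. Genes with larger differences whose groups overlapped are described further below. CYP1A1 is a cytochrome P450 that oxidizes polycyclic aromatic compounds. It is the textbook target of the aryl hydrocarbon receptor, a ligand-activated transcription factor that pairs with ARNT and binds a core motif, GCGTG. The 250 bases before its start site (RefSeq, GRCh38.p14, chr15:74725529-74725778, minus strand) are shown because CYP1A1 leads these named genes after ACOT12, with the core motif in capitals. The window holds 1 match, starting 57 bases before the start site, and whether the receptor binds there was not tested. On either strand (GCGTG or CACGC), the motif occurs in 11313 of 35116 promoter windows of this length, 32.2%, so its presence alone describes many promoters.
CYP1A1: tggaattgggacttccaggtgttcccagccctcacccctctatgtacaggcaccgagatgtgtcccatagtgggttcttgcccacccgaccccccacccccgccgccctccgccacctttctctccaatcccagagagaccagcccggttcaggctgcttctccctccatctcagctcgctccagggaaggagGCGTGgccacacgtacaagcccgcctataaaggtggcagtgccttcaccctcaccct

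CYP1A1 read 8.53 and 9.34 with empty vector, 10.07 and 10.25 with ACOT12 and 10.83 with the mutant. The groups did not overlap, and the empty vector arrays differed from each other by more than the ACOT12 arrays did. The difference was 1.45 ± 0.32. CYP1B1, a second P450 under the same receptor, read 12.80 and 12.88 with empty vector, 13.45 and 13.41 with ACOT12 and 13.59 with the mutant. All transgene arrays were above both controls, by 0.64 ± 0.13 on average. TIPARP, which modifies the receptor and limits its activity, differed by 0.38 ± 0.18, and SLC7A5, a transporter of large neutral amino acids, by 0.38 ± 0.19, both without overlap. AHR, the receptor itself, and its partner ARNT were lower without overlap by small amounts, at -0.16 ± 0.13 and -0.10 ± 0.13. CYP1A2, a hepatic member of the same P450 family, overlapped between the groups at 17.67 and 17.79 against 17.32 to 17.90, and so did ALDH3A1 and NFE2L2. Of 13 genes listed for this receptor, 10 were kept, of which 5 were higher and 5 lower with a median of -0.01. Without overlap, 4 were higher and 2 lower, beside 5.83% and 9.84% of all genes.

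CDA, cytidine deaminase of the pyrimidine salvage pathway, read 10.29 and 10.32 with empty vector, 11.33 and 11.14 with ACOT12 and 11.75 with the mutant. The control arrays were nearly equal and the transgene arrays at least 0.82 higher, for a difference of 1.10 ± 0.20. The kept genes of nucleotide salvage, CDA included, did not share it as a list. Of these 23, 8 were higher and 15 lower, with a median of -0.05. APBB1IP, an adaptor that links the GTPase Rap1 to integrin activation, read 9.95 and 9.41 with empty vector, 10.76 and 10.50 with ACOT12 and 11.14 with the mutant. Its groups were separate, and the difference was 1.12 ± 0.25. IGFBP6, a secreted protein that binds insulin-like growth factor II, read 13.18 and 13.09 against 13.73, 13.96 and 13.83. Here the mutant array lay between the ACOT12 arrays, and the difference was 0.70 ± 0.14.

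KRT7, a keratin of duct epithelium that hepatocytes lack, read 10.43 and 10.35 with empty vector, 10.98 and 11.67 with ACOT12 and 11.74 with the mutant. The groups were separate and the ACOT12 arrays were 0.68 apart from each other, with a difference of 1.08 ± 0.25 between groups. KRT80 read 10.19 and 9.60 against 10.42, 10.49 and 10.72, a difference of 0.65 ± 0.21 without overlap. KRT8, KRT18 and KRT19, the keratins of simple epithelia, overlapped between the groups with differences from -0.12 to 0.12, and KRT20 overlapped at -0.28 ± 0.18. Thus 2 of the 6 kept keratins were higher without overlap and 0 lower, beside 5.83% and 9.84% of all genes.

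MYL9, a regulatory light chain of contractile myosin, read 9.60 and 9.52 with empty vector, 10.15 and 10.42 with ACOT12 and 11.20 with the mutant. TAGLN, an actin-binding protein of smooth muscle, read 8.85 and 8.78 with empty vector, 9.26 and 9.96 with ACOT12 and 10.90 with the mutant. In both genes the groups were separate, the empty vector arrays were close together and the mutant array was the highest. Differences were 1.03 ± 0.31 for MYL9 and 1.23 ± 0.45 for TAGLN. Of the 25 kept genes of mesenchymal and contractile cells, 17 were higher and 8 lower with a median of 0.08, against a median of -0.02 over all genes, where 5784 were higher and 6843 lower. TPM4 read up to 15.26 on the mutant array but overlapped through the first ACOT12 array at 14.12, and CNN3 and TPM1 had negative differences of -0.35 and -0.21. Markers of endothelium, another cell type, summed to deposited intensities of 22918 and 20383 on the empty vector arrays and 25656 to 30619 on the transgene arrays. Of these 15 genes 7 were kept, of which 2 were higher and 5 lower with a median of -0.06, so most did not follow the sum. Fibroblast markers, with 3 of 13 kept, summed to 8859 and 11550 against 6774 to 12108. Their part in the result was not tested.

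LAMB3, the beta chain of the basement membrane protein laminin-332, was measured by 2 kept probes. The brighter read 12.88 and 12.65 with empty vector, 13.81 and 13.22 with ACOT12 and 13.80 with the mutant, and the other gave 12.70 and 12.61 against 13.36, 13.12 and 13.67. Both were separate between the groups, with differences of 0.84 ± 0.22 and 0.72 ± 0.19. The other laminins did not move with it, since LAMB1 and LAMC1 were lower without overlap at -0.30 and -0.21 and LAMB2 was higher at 0.26. IL32, a cytokine, had 4 kept probes that were all higher on average, by 0.94 to 1.39, and 2 of these were without overlap. Its brightest probe read intensities of 2874 and 4057 with empty vector, 4414 and 8397 with ACOT12 and 9950 with the mutant. The first ACOT12 array sat close to the second empty vector array, so that the separation was only 0.09 on the log2 scale.

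Other named genes that were higher were spread over unrelated functions. FSTL3, a secreted antagonist of activin, differed by 0.78 ± 0.23 and GPRC5B, an orphan receptor, by 0.79 ± 0.17. GLRA1, a subunit of the glycine receptor, differed by 0.79 ± 0.27. ZIC4, a zinc finger transcription factor, read 8.43 and 9.51 with empty vector and 9.70 to 10.18 with the transgenes, and CST1, a secreted inhibitor of cysteine proteases, 13.42 and 14.45 against 14.55 to 15.06. In ZIC4 and CST1 the empty vector arrays were more than 1 log2 unit apart, and the higher one lay within 0.2 of the nearest transgene array.

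**Figure D2:**
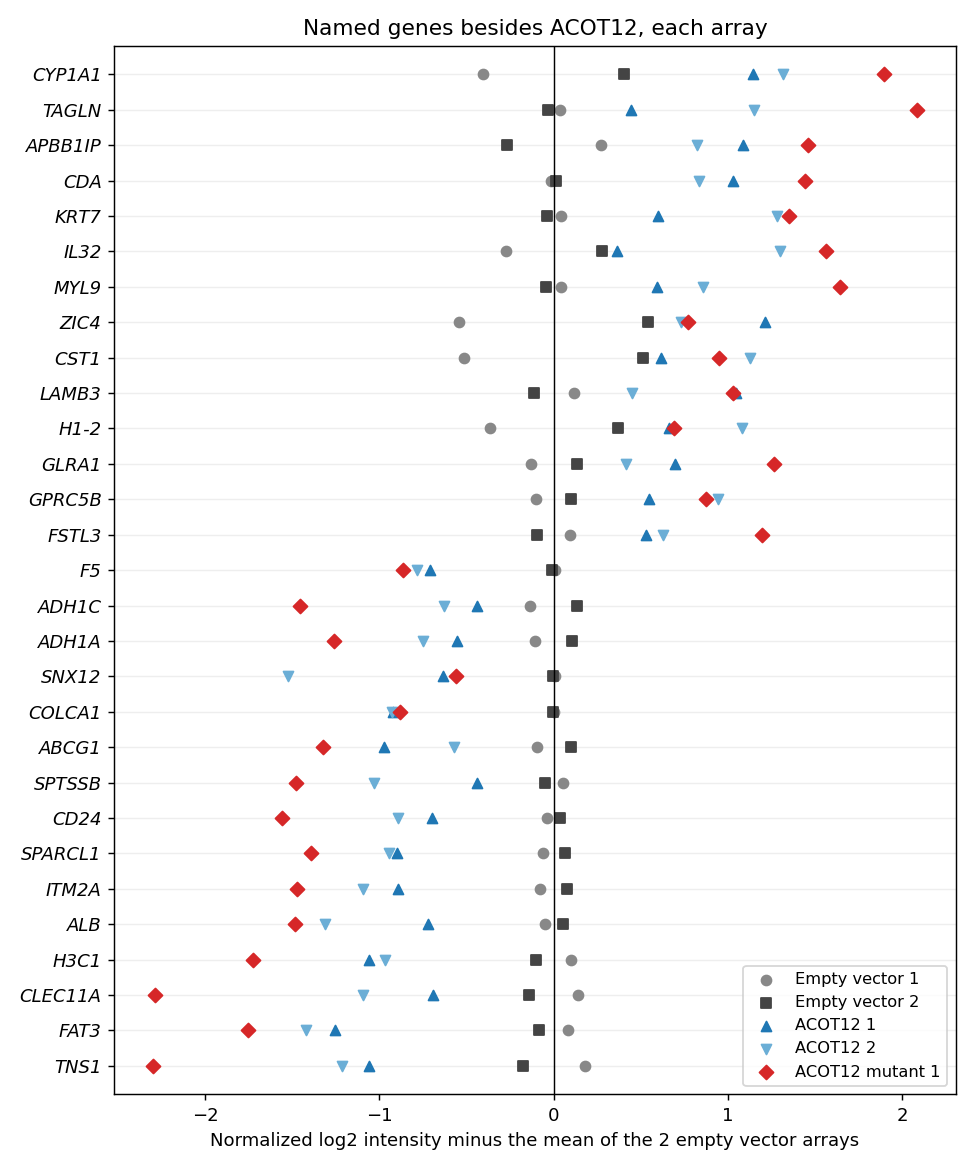
Level of each named gene besides ACOT12 on each of the 5 arrays, as the normalized log2 value minus the mean of the 2 empty vector arrays (horizontal), 1 row per gene. Genes were named only where the groups did not overlap, so every row has the transgene arrays on one side of both controls. The mutant array (red diamond) is farther from the controls than the ACOT12 mean in most rows, reaching -2.30 for TNS1 and 2.09 for TAGLN.

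Among genes lower with both transgenes, proteins that hepatocytes secrete into plasma were represented by ALB and F5. ALB, serum albumin, read 11.40 and 11.50 with empty vector, 10.73 and 10.13 with ACOT12 and 9.97 with the mutant. The control arrays were close to each other and all transgene arrays were at least 0.67 below them, for a difference of -1.17 ± 0.24. F5, coagulation factor V, read 11.88 and 11.86 with empty vector, 11.16 and 11.08 with ACOT12, and with the mutant it lay -0.87 from the empty vector mean. All arrays within each group were nearly equal, and the difference was -0.79 ± 0.13. A further F5 probe, too dim to be kept, showed no such shared drop. It read intensities of 107 and 78.8 with empty vector, 113 and 115 with ACOT12 and 60.3 with the mutant. C4BPA, a complement regulator, differed by -0.73 ± 0.20 and ITIH2, a heavy chain of the inter-alpha-trypsin inhibitor, by -0.47 ± 0.16, both without overlap. The direction was not general. APOE, a carrier of lipoprotein lipids, and FETUB, a protease inhibitor, were higher without overlap by 0.43 and 0.27. APOC1 at 0.54 and FGB, a fibrinogen chain, at -0.44 overlapped, and AFP and TF differed by -0.04 and -0.07. Of 50 genes listed, 32 were kept, of which 22 were lower and 10 higher, with a median of -0.05. Without overlap, 4 were lower (12.5%) and 2 higher (6.25%), near the 9.84% and 5.83% of all genes.

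Alcohol dehydrogenases, which oxidize ethanol and retinol in the liver, were lower as well. ADH1A read 11.30 and 11.52 with empty vector, 10.86 and 10.66 with ACOT12 and 10.15 with the mutant, and ADH1C 14.36 and 14.63 against 14.06, 13.87 and 13.04. Neither gene overlapped between the groups, and the mutant array was the lowest in both. Differences were -0.85 ± 0.23 for ADH1A and -0.84 ± 0.32 for ADH1C. These genes are near copies of each other, so their probes may share signal. ADH6, with 2 probes at -0.70 and -0.48, and ADH5, the ubiquitous member that handles formaldehyde, at -0.27, were also lower without overlap. For ADH5 this came mostly from the mutant array, at -0.64 from empty vector, against -0.08 ± 0.13 with ACOT12. ADH1B, ADH4 and ADH7 were not among the kept genes.

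CD24, a surface glycoprotein of liver progenitor and tumour cells, read 12.68 and 12.75 with empty vector, 12.02 and 11.82 with ACOT12 and 11.16 with the mutant. The groups were separate with a difference of -1.05 ± 0.27. SOX9, a transcription factor of bile duct and progenitor cells that is also a target of Wnt signalling, read 13.01 and 13.24 against 12.69, 12.86 and 12.46, a difference of -0.46 ± 0.17 without overlap. Of 16 kept genes of progenitor cells, 11 were lower and 5 higher, and 3 were lower without overlap (18.8%, against 9.84% of all genes). ICAM1 and ANPEP had positive differences of 0.40 and 0.41 and overlapped.

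The lower genes named with the largest differences were TNS1, FAT3 and CLEC11A. FAT3, an atypical cadherin, read 10.01 and 9.84 with empty vector, 8.67 and 8.50 with ACOT12 and 8.17 with the mutant. It had the widest separation of all lower kept probes, 1.17 between the nearest arrays, and a difference of -1.48 ± 0.19. Further FAT3 probes, too dim to be kept, showed no such drop. They read intensities of 65.3 and 64.2 with empty vector against 103 to 120 with the transgenes, and 263 and 141 against 156 to 329. TNS1, tensin, which ties integrins to actin at focal adhesions, read 10.41 and 10.05 with empty vector, 9.17 and 9.02 with ACOT12 and 7.93 with the mutant, a difference of -1.52 ± 0.39. Its other kept probe, dimmer, overlapped between the groups at -0.25 ± 0.41. SPARCL1, a matrix-associated glycoprotein, read 10.51 and 10.63 against 9.67, 9.62 and 9.18, and ITM2A, a membrane protein, 12.92 and 13.08 against 12.11, 11.91 and 11.53. Both were separate by more than 0.8, with differences of -1.08 ± 0.19 and -1.15 ± 0.20. CLEC11A, a secreted growth factor for blood and bone progenitors, read 12.20 and 11.92 with empty vector, 11.36 and 10.96 with ACOT12 and 9.77 with the mutant, a difference of -1.36 ± 0.46.

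Lipid genes among the named ones were SPTSSB and ABCG1. SPTSSB, a small subunit of the serine palmitoyltransferase that starts sphingolipid synthesis, read 14.53 and 14.43 with empty vector, 14.04 and 13.45 with ACOT12 and 13.01 with the mutant. Its other probe gave the same order, and the differences were -0.98 ± 0.30 and -0.96 ± 0.32. ABCG1, an exporter of cholesterol, differed by -0.96 ± 0.24. COLCA1 read 9.80 and 9.79 with empty vector, 8.88 and 8.87 with ACOT12 and 8.92 with the mutant, so that arrays within each group nearly coincided, and the difference was -0.91 ± 0.12. SNX12, a sorting nexin of endosomes, had an ACOT12 array farthest from the controls, at 11.16 against 12.05 on the other ACOT12 array and 12.12 with the mutant.

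Genes of the enzyme's own metabolism had small differences. Of 13 listed thioesterases other than ACOT12, 10 were kept, and their differences ran from -0.25 for ACOT11, which like ACOT12 carries a START lipid-binding domain, to 0.24 for ACOT13. These were the 2 whose groups did not overlap. The other genes of acetyl-CoA and acetate gave 16 lower and 9 higher of 25 kept, with a median of -0.05. The largest difference without overlap was PANK1, a kinase that commits pantothenate to coenzyme A, at -0.24. Among 26 kept genes of fatty acid oxidation and ketone synthesis, 19 were lower, 5 of them without overlap (19.2%, against 9.84% of all genes), and 0 were higher without overlap, against 5.83% of all genes. Examples are HADH at -0.26 and DECR1 at -0.23, both enzymes of mitochondrial beta-oxidation, and CPT2, of the carnitine shuttle, at -0.14. Fatty acid synthesis had 16 lower and 11 higher of 27, and cholesterol synthesis had 11 higher and 10 lower of 21. The 30 kept genes of histone acetylation split into 16 higher and 14 lower with a median of 0.01.

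Histone genes were mostly higher. Of 17 kept, 15 were higher with a median of 0.15, 6 of them without overlap (35.3%, against 5.83% of all genes). H1-2, a linker histone, read 9.88 and 10.61 with empty vector, 10.91 and 11.33 with ACOT12 and 10.93 with the mutant, a difference of 0.81 ± 0.26. H2BC14 differed by 0.72 ± 0.22. H2AC18 differed by 0.53 ± 0.16 on each of its 2 separate probes. The 2 lower ones were H2BC17, which overlapped at -0.21 ± 0.18, and H3C1, a replication-dependent histone H3 gene. H3C1 read 9.50 and 9.30 with empty vector, 8.34 and 8.43 with ACOT12 and 7.68 with the mutant. Its groups were separate with a difference of -1.25 ± 0.25. Histone genes are near copies, their probes may share signal, and 46 of 53 listed were on the array.

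Signalling lists held small differences. For comparison, 54.2% of all genes were lower. Wnt pathway genes were lower in 23 of 27 kept cases, with a median of -0.12. Without overlap, 9 were lower (33.3%) and 0 higher, against 9.84% and 5.83% of all genes. AXIN2, the feedback inhibitor that serves as the standard Wnt target, read 11.11 and 10.57 with empty vector, 10.46 and 10.18 with ACOT12 and 10.18 with the mutant, a difference of -0.57 ± 0.20. The empty vector arrays were farther apart from each other than the lower of them was from the nearest transgene array. ZNRF3, another feedback inhibitor, differed by -0.28 ± 0.14 on the brighter of its 2 kept probes, while the other probe had the opposite sign. GLUL, the glutamine synthetase that Wnt maintains around the central vein, differed by -0.25 ± 0.14. In the TGF-beta and BMP list, 18 of 26 were lower and 7 were lower without overlap (26.9%, against 9.84% of all genes). ID1 read 17.79 and 17.83 against 17.38, 17.46 and 17.39, and ID3 15.84 and 15.60 against 15.34, 15.38 and 15.05. Both are transcriptional inhibitors induced by BMP, both were separate between the groups, and the differences were -0.40 ± 0.13 and -0.46 ± 0.17. CDKN2B, an inhibitor of the cell cycle induced by TGF-beta, was lower at -0.38, and FSTL3 was the 1 higher gene without overlap.

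Interferon-induced genes were higher in 23 of 34 kept cases with a median of 0.13, and without overlap 5 were higher (14.7%, against 5.83% of all genes) and 3 lower (8.82%, near the 9.84% of all genes). ISG15, a ubiquitin-like modifier, read 12.10 and 12.25 with empty vector, 12.40 and 12.78 with ACOT12 and 13.19 with the mutant, a difference of 0.62 ± 0.24. IFIT1 and PARP9 differed by 0.45 ± 0.17 and 0.42 ± 0.16. In the other direction, IFITM2 differed by -0.46 ± 0.17 and MX1 by -0.31 ± 0.15, also without overlap, so members known to be induced together did not share a direction. Of the S100 family of calcium-binding proteins, 12 were kept, of which 7 were higher and 5 lower with a median of 0.04. Without overlap, 5 were higher (41.7%) and 0 lower, against 5.83% and 9.84% of all genes. S100A2 differed by 0.39 ± 0.15 and S100A16 by 0.35 ± 0.14. Genes of mitosis and the cell cycle were lower in 34 of 51 cases, but by little. Their median was -0.03, and 10 were lower without overlap (19.6%, against 9.84% of all genes), led by CCNE1, cyclin E, at -0.28 ± 0.14. PLK1, a mitotic kinase, was higher without overlap by 0.36, mostly through the mutant array, at 0.77 against 0.16 ± 0.14 with ACOT12.

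**Figure D3:**
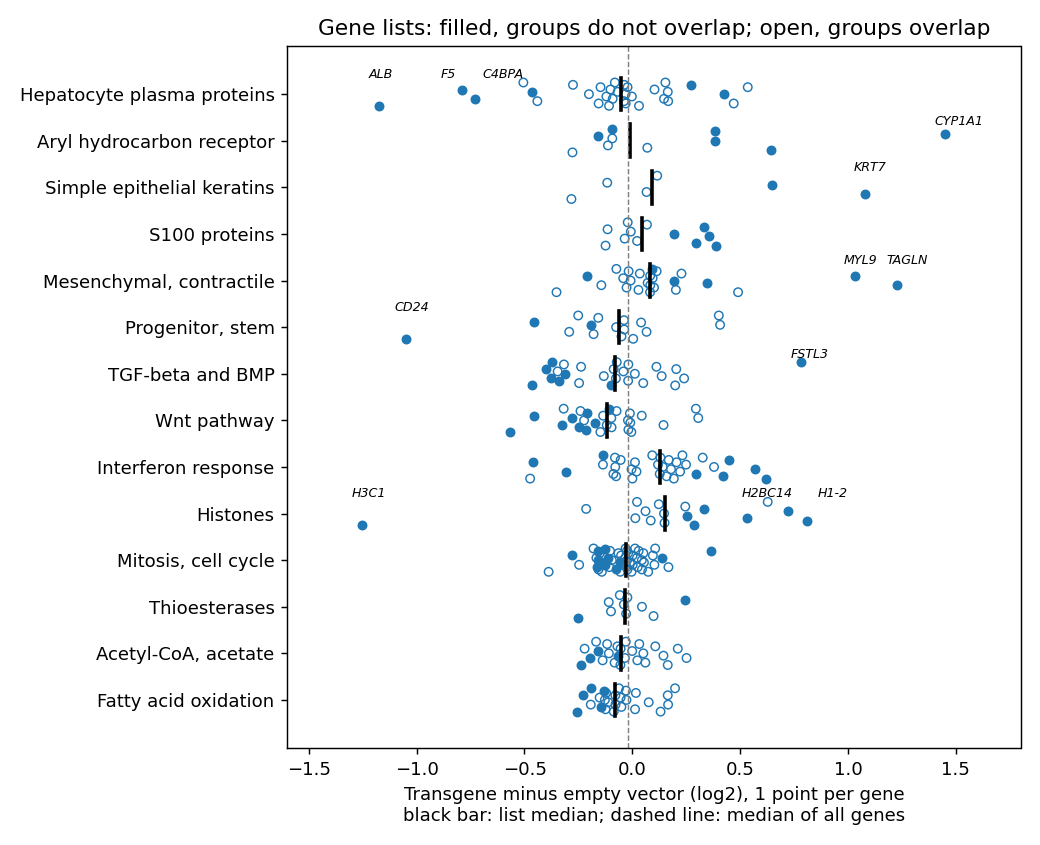
Difference between transgene and empty vector means (log2, horizontal) for the kept genes of 14 lists, 1 point per gene, shown by the brightest probe. Filled points are genes whose groups did not overlap, the black bar is the list's median and the dashed line the median of all genes at -0.02. Members beyond 0.7 in either direction with an unadjusted p under 0.05 are named.

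Across 55 lists with at least 5 kept genes, medians ran from -0.12 to 0.17, 26 were positive and 29 negative, and 0 lists held a called gene. The lists were described by counts alone. Members of a list are not independent of each other.

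Several probes of one gene gave a check within the arrays. Of 3013 genes with more than 1 kept probe, 1324 had probes that differed in sign. Genes with 2 or more probes that were each without overlap and at an unadjusted p under 0.05, a set singled out after their values were seen, numbered 8 higher and 7 lower. The higher ones included CRABP2, which carries retinoic acid to its nuclear receptor, at 0.68 ± 0.17 and 0.74 ± 0.21. GGT1, which breaks down extracellular glutathione, was at 0.47 ± 0.15 and 0.63 ± 0.24. BCL2L15, a member of the BCL2 family, had 3 such probes at 0.68 to 0.75, of which the one at 0.75 was kept through the transgene arrays alone. Its separation in deposited intensity thus followed from the filter, which favours separation on the log2 scale too. MEGF6, UNC13D, H2AC18, IL32 and LAMB3 complete the set. The lower ones were ADH6, SPTSSB, ETS2, FRMD3, NDRG2, RHOBTB3 and VSIG1. ETS2, a transcription factor of the ETS family, was at -0.42 ± 0.16 and -0.41 ± 0.14.

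The shared genes were not equal in measured size between the transgenes. In 25 of the 30 named genes, 12 higher and 13 lower, the mutant array stood farther from the empty vector mean than the ACOT12 mean did. This was not particular to the named genes. Over all kept probes, the mutant array differed from the empty vector arrays by a median absolute 0.27 and 0.22, the ACOT12 arrays by 0.10 to 0.18. The same count over all kept probes was not made. MYL9 differed from empty vector by 0.73 with ACOT12 and by 1.64 with the mutant, TAGLN by 0.80 and 2.09, CD24 by -0.80 and -1.56, and ADH1C by -0.53 and -1.45. F5, COLCA1, IGFBP6 and CYP1B1 were alike in both, with ACOT12 and mutant within 0.16 of each other. The direct comparison called 532 probes (3.32%) with a higher level under ACOT12 and 31 (0.193%) with a lower one. Of the 30 named genes, 2 were called, CLEC11A at 1.39 ± 0.24 (limma adjusted p = 0.0443) and TNS1 at 1.16 ± 0.21 (limma adjusted p = 0.0483). The mutant is a single array that was also the dimmest, and array and mutant cannot be told apart. The number of calls between ACOT12 and mutant also shifted widely between processing settings, as given further below.

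A group of differences larger than 2 came from arrays on which a probe read near the floor. CYP26A1, which degrades retinoic acid, read an intensity of 8.17 on the first empty vector array, 609 on the second and 281 to 1164 with the transgenes. Its difference of 3.002 ± 1.56 thus rested on 1 array. SYNJ2BP was likewise near the floor on the first empty vector array and CRAMP1 on the second, with differences of 2.73 ± 1.41 and 2.44 ± 1.25. ATXN7L3B was near the floor on the first ACOT12 array, at -3.09 ± 2.60, and NGRN on the second, at -4.03 ± 3.70. SHPRH was near the floor on the first ACOT12 array and on the mutant array, at -4.98 ± 2.06.

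Genes bright with empty vector alone were outside the kept set and are given by value. TSPYL5, a nucleosome assembly protein family member, read intensities of 765 and 619 with empty vector, 185 and 190 with ACOT12 and 61.2 with the mutant. CFAP90 read 1331 and 928 against 363, 364 and 86.7, and TTN, titin, 734 and 430 against 186, 209 and 51.1. Separation in deposited intensity followed from choosing genes bright with empty vector alone, which favours separation on the log2 scale too. Those with the largest log2 differences were named, so the separation is no independent result. In all 3 genes the groups were well apart and the mutant array was the lowest. On the log2 scale the differences were -2.48, -2.32 and -2.25. The transgene readings were low, so these sizes depend on how low signals are treated. NLRP11 and HRK followed at -1.23 and -1.03. These 5 genes were not part of the test.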

How the data were processed

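RNA from 5 samples was measured on 1-colour arrays, after Trizol extraction and Cy5 labelling per the labels' protocols. The authors deposited linear probe intensities, a unit inferred from the numbers themselves. Scanner, background correction and scaling are not given in these sources.

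Of 28264 probes, 25893 had 1 gene symbol in the platform annotation and 2371 had none. Intensities below 0 were set to 0, 1 was added, log2 was taken and all probes were quantile normalized. Kept probes (intensity of at least 400 on 3 or more arrays) were fitted with limma 3.58.1 in R 4.3.3, 3 transgene against 2 empty vector arrays, without covariates. Residual degrees of freedom were 3, and p-values were two-sided and Benjamini-Hochberg adjusted over 16022 probes (threshold 0.05). Errors are moderated standard errors. A 3-group fit gave the values of each transgene. The depth of an array is limited by the number of arrays and by signal over background.

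A gene was shown by its brightest probe. Named were, per direction, up to 15 genes with the largest difference among those called without overlap, filled up with those at an unadjusted p under 0.05, with all kept probes on one side. Up to 4 members per list with the smallest p were named, as well as the genes at the filter's margin. Others named were chosen after their values were seen. The members and lists were chosen with earlier results of these data known. The procedure was tested on simulated data, and 18 alternative settings were run.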

Additional observations from a re-analysis of the deposited data

Results flagged for a closer look

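Among the genes shared by both transgenes, 2 differed between ACOT12 and mutant by the direct test. CLEC11A was higher with ACOT12 than with the mutant by 1.39 (limma adjusted p = 0.0443), with levels of 11.36 and 10.96 against 9.77. TNS1 was higher with ACOT12 by 1.165 (limma adjusted p = 0.0483), with levels of 9.17 and 9.02 against 7.93. Both genes were lowest on the mutant array and highest with empty vector. The mutant side is 1 array, assumed to vary like the others, and the count of such calls over all probes ran from 0 to 2274 between settings.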

How the results depend on the processing

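All 32 genes followed had been chosen for groups that did not overlap, which by itself favours an unchanged direction. They kept their direction under each of the 18 alternatives that held them, which is therefore no independent check. Of 562 such values, 559 stayed on the same side of the threshold, and the 3 exceptions were ACOT12 itself. It missed the threshold with values as deposited (7.06, limma adjusted p = 0.207), without ACOT12 replicate 1 (6.64, limma adjusted p = 0.0921) and without ACOT12 replicate 2 (6.67), where SHPRH was called instead. Leaving out arrays in turn gave 0 to 2 calls in all, 0 to 2 higher (CRAMP1 without empty vector replicate 1, SYNJ2BP without replicate 2) and 0 to 1 lower. Values as deposited gave 0 calls, as did a minimum of 400 on all 5 arrays, which drops the ACOT12 probe. With equal weight of ACOT12 and mutant 3 probes were called, with IGSF3 and KCNJ13 as 2 lower calls. With the replicate number as a block (replicate block), 1 probe was called, ACOT12 (limma adjusted p = 0.0399), and no other call between transgene and empty vector changed. The labels do not say that numbers pair samples, and deviations of same-numbered arrays correlated at 0.21 over 2 pairs. Of probes with an unadjusted p under 0.05, 42.8% were higher, against 54.5% with values as deposited and 53.8% with median centring. Leaving out 1 array moved it to between 39.2% and 73.5%.

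Probes without overlap numbered 351 higher and 1027 lower with median centring, 1515 higher with no filter, and 1767 to 3246 higher and 2570 to 3402 lower with 1 array left out, where fewer arrays make separation easier. Separation by at least 0.5 held for 5 higher with median centring, 29 higher and 51 lower with no filter, 7 lower with 400 on all 5 arrays and 7 lower with a minimum of 800. With 1 array left out it held for 13 to 64 higher and 21 to 68 lower. Calls between ACOT12 and mutant numbered 1373 with values as deposited, 2274 with median centring, 1074 with cyclic loess, 45 with no filter, 288 with 400 on all arrays of either side, 0 with 400 on all 5, 2 with the mean over the probes of a gene, 1511 with the replicate block and 4 to 826 with 1 array left out. The cause of these shifts was not tested. Of 216 list medians, 18 moved by more than 1 SD and 7 changed sign. Signal over background limits values near the floor, ACOT12 with empty vector included.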

Other observations

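Outside the functions described, ribosomal protein genes were higher in 38 of 62 kept cases with a median of 0.03. Without overlap, 7 were higher (11.3%) and 1 lower (1.61%), against 5.83% and 9.84% of all genes. Collagens and matrix genes were higher in 20 of 30 with a median of 0.17, the highest of the lists with at least 5 kept genes. Of these, 2 (6.67%) were higher without overlap, near the 5.83% of all genes. Of the 2, COL16A1 was kept through the transgene arrays alone. Its separation in deposited intensity thus followed from the filter, which favours separation on the log2 scale too. Citric acid cycle genes were lower in 16 of 21 with a median of -0.07, and 2 (9.52%) were lower without overlap, a share close to the 9.84% of all genes. NF-kappaB feedback genes were higher in 12 of 16 with a median of 0.11, and 0 were without overlap in either direction.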
